A study of Homo sapiens with 12 samples.

Results

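The genes described are 47 collagens and other genes of the extracellular matrix, measured in 2 triple-negative breast cancer cell lines with and without the mTOR inhibitor everolimus. They were chosen by name, as fibrillar, basement membrane and other collagens, matrix glycoproteins, proteoglycans, matricellular proteins, collagen-processing enzymes, and matrix proteases with their inhibitors. Each is represented by the probes whose annotation gives that gene symbol alone, which came to 76 probes on the array. Of the 47 genes, 42 had a probe bright enough to be tested, out of 11764 genes tested in all. The lines, MDA-MB-231 and BT-549, are long-established human ones, both labelled triple negative. Each was kept for 48 h either in DMSO, the solvent control, or in 10 uM everolimus, a rapamycin analog that inhibits mTOR complex 1. Each of the 4 groups holds 3 arrays, 12 in all. The labels do not say that the replicates were separate cultures, so the p-values measure the spread between these arrays, which may be technical.

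The extracellular matrix is the network of collagens, glycoproteins and proteoglycans that cells secrete around themselves. Collagen chains are hydroxylated and folded in the endoplasmic reticulum, trimmed on secretion, assembled into fibrils or sheets and crosslinked by lysyl oxidases. In breast tumours most fibrillar collagen comes from stromal fibroblasts, while carcinoma cells that have taken on mesenchymal traits can make it too.

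All values are log2 signals as deposited, on which background was left in. Signals are relative within an array, so fewer cells making a transcript and less of it per cell cannot be told apart. The most frequent value, which marks probes without signal, was 6.55, the brightest probe read 14.56, and between 9840 and 10360 genes per array lay above the floor of 6.77 set on dim probes. Arrays of a group correlated at 0.927 to 0.995 (Pearson's r across the tested genes, which are not independent replicates), and replicate 1 lay furthest from its group in all 4 groups. In BT-549 the first everolimus array stood apart most, with an SD of its deviations from the group mean of 0.393 against 0.217 and 0.227 for replicates 2 and 3. The estrogen and progesterone receptor genes ESR1 and PGR were near background on all arrays, while ERBB2 read 8.20 to 9.82. VIM, the mesenchymal intermediate filament, read 13.45 to 14.39 in both lines. ZEB1, also a mesenchymal marker, was at background in both lines and too dim to be tested. Its line means were 6.64 (MDA-MB-231) and 6.60 (BT-549). CDH2, which encodes N-cadherin, was high in BT-549 only, and the epithelial keratin KRT19 in MDA-MB-231 only. The epithelial marker CDH1 was at background in both lines. The leukocyte marker PTPRC, the T cell marker CD3E, the endothelial marker CDH5 and HBB, a globin gene, were near background everywhere. The endothelial marker VWF read 6.42, 8.31 and 8.22 on BT-549 everolimus arrays 1, 2 and 3, and CD14 read 6.92 to 8.41 in MDA-MB-231. On those 3 BT-549 arrays the erythroid marker HBA1 read 6.45, 6.92 and 6.89, and CD14 read 6.70, 7.09 and 7.04.

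The lines differed in which matrix genes gave a signal at all. A gene was taken as being at background in a line when its mean over that line's 6 arrays was under 6.8. By that measure 28 of the 47 genes gave a signal in MDA-MB-231, against 39 of the 47 in BT-549, and 26 gave one in both. The 13 genes above background in BT-549 only were COL1A1, COL1A2, COL3A1, COL5A2, COL6A2, COL6A3, SPARC, MGP, POSTN, FBN1, BGN, VCAN and THBS2. Only COL8A1 and TIMP3 were above it in MDA-MB-231 alone. NID1, FN1, LUM, DCN, LOXL2 and MMP2 were at background in both lines, and all of these but FN1 were too dim to be tested. LUM and DCN encode the small proteoglycans lumican and decorin, which are widely used fibroblast markers. A probe at background does not show that the RNA is absent. Shares of all genes given below are over every tested gene, also those at background in a line. They are therefore not like for like with shares of the genes above background. Near the limit, COL6A3 (6.76) and COL1A1 (6.74) lay just under it in MDA-MB-231 and COL16A1 (6.94) just over it, while in BT-549 FN1 (6.73) lay just under it and FBN1 (6.81) just over it.

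**Figure D1:**
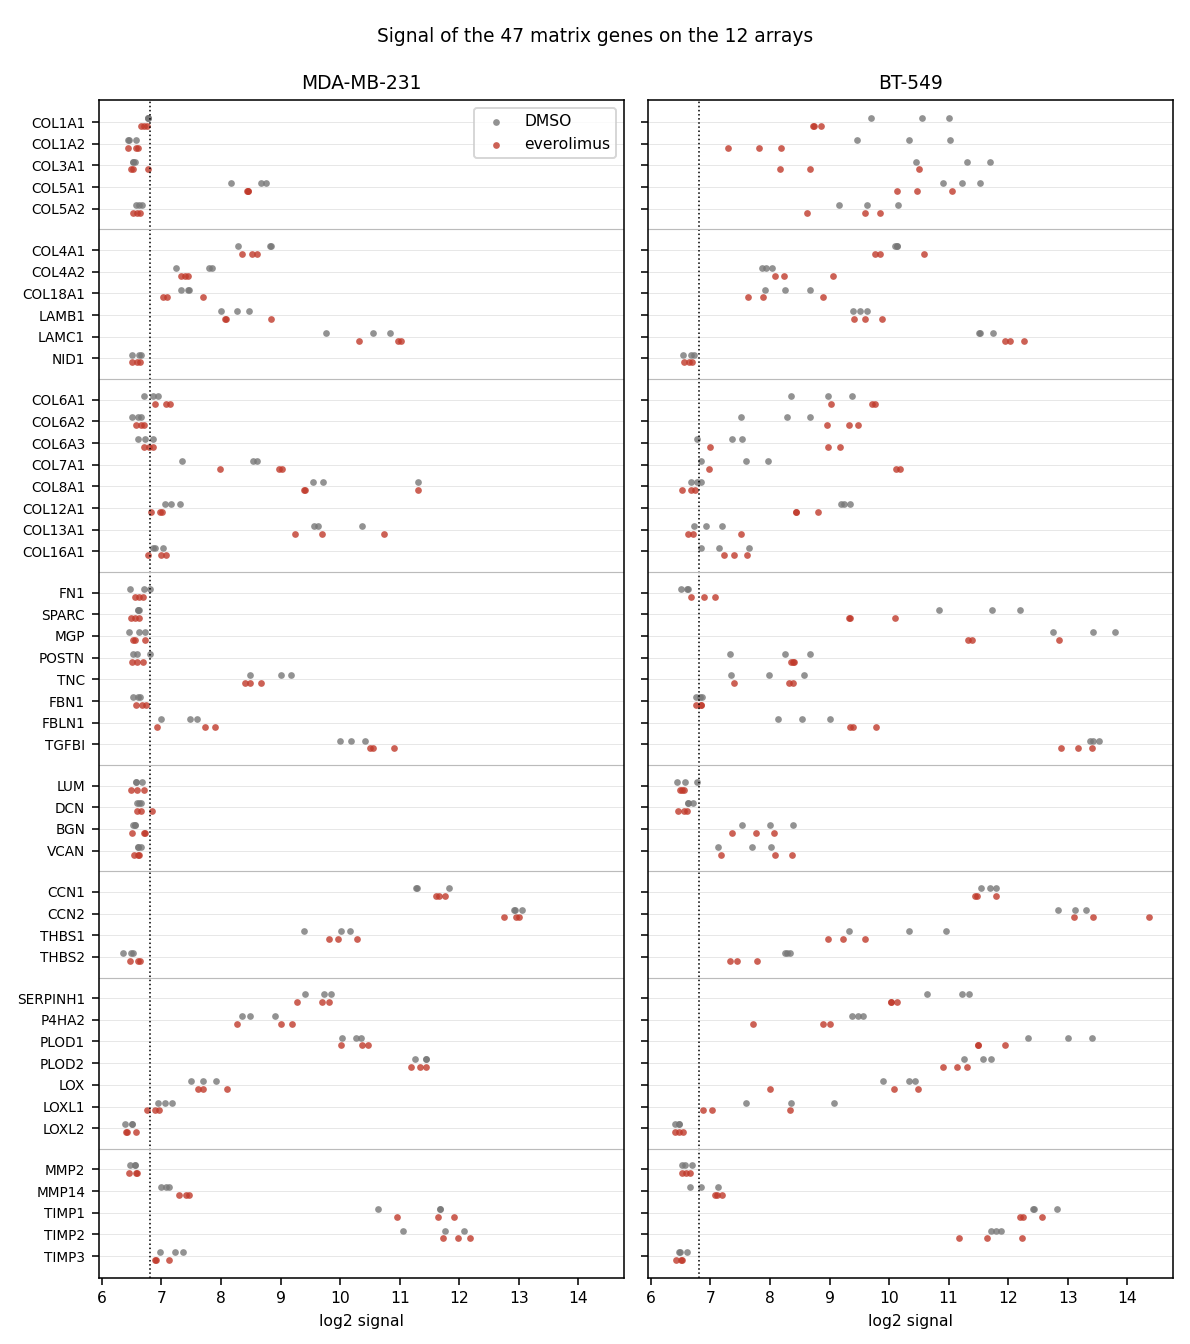
Log2 signal of the 47 matrix genes on all 12 arrays, with MDA-MB-231 on the left and BT-549 on the right, DMSO arrays in grey and everolimus arrays in red. Each point is 1 array, horizontal lines separate the role groups, and the dotted line is the background limit of 6.8, which the means of 28 genes exceeded on the left and those of 39 genes on the right.

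Under DMSO, BT-549 gave clear signals for COL1A1, COL1A2, COL3A1, SPARC and MGP, where MDA-MB-231 was at background. MGP, which encodes matrix Gla protein, an inhibitor of calcification, read 13.80, 13.43 and 12.75 on the 3 BT-549 DMSO arrays and lay below the floor on the 3 MDA-MB-231 DMSO arrays, so it was at least 94.3-fold higher in BT-549 (fitted log2 difference 6.72, SE 0.37, limma adjusted p 4e-07). SPARC, a collagen-binding glycoprotein, was at least 28.3-fold higher. COL3A1, the chain of type III collagen, was at least 21.0-fold higher, and COL1A2, a chain of type I collagen, at least 11.4-fold higher. These bounds set the floor in place of lower values in MDA-MB-231. The other type I chain, COL1A1, read 6.78 on all 3 MDA-MB-231 DMSO arrays against 9.70, 10.56 and 11.00 in BT-549, a log2 difference of 3.64. In the opposite direction, COL8A1, a short-chain collagen, differed by -3.42 and COL13A1, a transmembrane collagen, by -2.90 on the log2 scale (BT-549 minus MDA-MB-231). The tissue inhibitor of metalloproteinases TIMP3 lay below the floor on the BT-549 DMSO arrays and was at least 1.34-fold higher in MDA-MB-231 (fitted difference -0.66). These 3 genes passed the test. COL8A1, like TIMP3, was at background in BT-549, so its difference rests on a signal that was not measured there. TNC, which encodes tenascin-C, followed at -0.92 (adjusted p 0.0547) and COL7A1, of anchoring fibrils, at -0.69 (adjusted p 0.526), neither of which passed. In all, 27 of the 42 tested genes differed between the DMSO groups, 24 of them higher in BT-549 and 3 lower, where 30.4% of all 11764 genes differed, 14.9% higher and 15.5% lower. A gene that passed the filter only through BT-549 was favoured to differ, so nothing is read from that count. Among genes above background in both lines, TGFBI, a secreted adhesion protein, differed by 3.24 and PLOD1, a procollagen lysyl hydroxylase, by 2.70. The CCN genes were close: CCN1 differed by 0.21 and CCN2 by 0.11.

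In MDA-MB-231, everolimus moved none of the matrix genes past the test. Of the 28 genes above background, 0 were called by limma at an adjusted p under 0.05, against 0.153% of all genes (0.102% higher and 0.051% lower). An unadjusted p under 0.05 was reached by 2 of the 28, and by 1246 of all 11764 genes. Log2 fold changes ran from -0.37 to 0.50 around a median of 0.05, and the median over all genes was -0.01. The genes with an unadjusted p under 0.05 were TGFBI and MMP14, the membrane-type metalloproteinase that activates other matrix proteases. TGFBI read 10.00, 10.42 and 10.19 in DMSO and 10.91, 10.51 and 10.56 in everolimus (0.46, SE 0.16, adjusted p 0.31). MMP14 read 7.07, 6.99 and 7.12 in DMSO and 7.47, 7.41 and 7.29 in everolimus (0.33, SE 0.12, adjusted p 0.317). In both genes all treated arrays lay above all controls. In COL12A1, which encodes a collagen that decorates fibrils, all treated arrays lay below all controls (-0.24, adjusted p 0.537). Thus 3 of 28 genes had groups that did not overlap, 2 higher and 1 lower, where 18.6% of all genes did, 8.63% higher and 9.94% lower.

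SERPINH1 encodes HSP47, the collagen-specific chaperone. Its arrays in the MDA-MB-231 line read 9.41, 9.85 and 9.73 in DMSO and 9.28, 9.70 and 9.81 in everolimus, a change of -0.07 (adjusted p 0.972). CCN1 and CCN2 encode secreted matricellular proteins, and are widely used as readouts of YAP and TEAD activity. CCN1 read 11.83, 11.28 and 11.29 in DMSO and 11.76, 11.61 and 11.66 in everolimus (0.21, adjusted p 0.743). CCN2 read 13.06, 12.94 and 12.92 in DMSO and 13.00, 12.95 and 12.76 in everolimus (-0.07, adjusted p 0.983). For each of these 3 genes the groups overlapped. PLOD1 read 10.03, 10.27 and 10.35 in DMSO and 10.47, 10.37 and 10.01 in everolimus (0.07, adjusted p 0.983). FBLN1 read 6.99, 7.60 and 7.48 in DMSO and 6.92, 7.90 and 7.73 in everolimus (0.16, adjusted p 0.939). COL12A1, whose groups lay apart, read 7.32, 7.06 and 7.16 in DMSO and 6.98, 6.83 and 7.01 in everolimus. COL1A1 and FN1 were at background in this line. COL1A1 read 6.75, 6.66 and 6.71 in everolimus, against 6.78 on each control, and FN1 read 6.48, 6.71 and 6.8 in DMSO and 6.56, 6.63 and 6.69 in everolimus.

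In BT-549, transcripts of the type I and type III collagen chains, of SPARC and of part of the machinery that folds and modifies collagen were lower in everolimus than in DMSO. Of the 39 genes above background, 11 were called by limma at an adjusted p under 0.05, which is 28.2% against 16.8% of all genes. The 16.8% includes genes at background in BT-549. With a stricter floor on dim probes the shares were 28.9% of 38 matrix genes and 20.8% of all genes. Of the 11 called genes, 9 were lower and 2 higher, where 7.23% of all genes were lower and 9.54% higher. The lower ones were COL1A1, COL1A2, COL3A1, COL12A1, SPARC, MGP, THBS2, SERPINH1 and PLOD1, and the higher ones COL6A2 and FBLN1. The median log2 fold change over the 39 genes was -0.15, against 0.04 over all genes. In 4 genes all treated arrays lay above all controls and in 8 they lay below, where 18.5% and 14.1% of all genes did so (32.7% in either direction). The genes with groups apart but no call were P4HA2, lower, and COL4A2 and LAMC1, higher. The count of calls depended on single arrays: it was 17 without everolimus replicate 1 (43.6% of the 39, where 28.0% of all genes were called) and 7 without everolimus replicate 3 (17.9%, where 7.31% of all genes were).

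**Figure D2:**
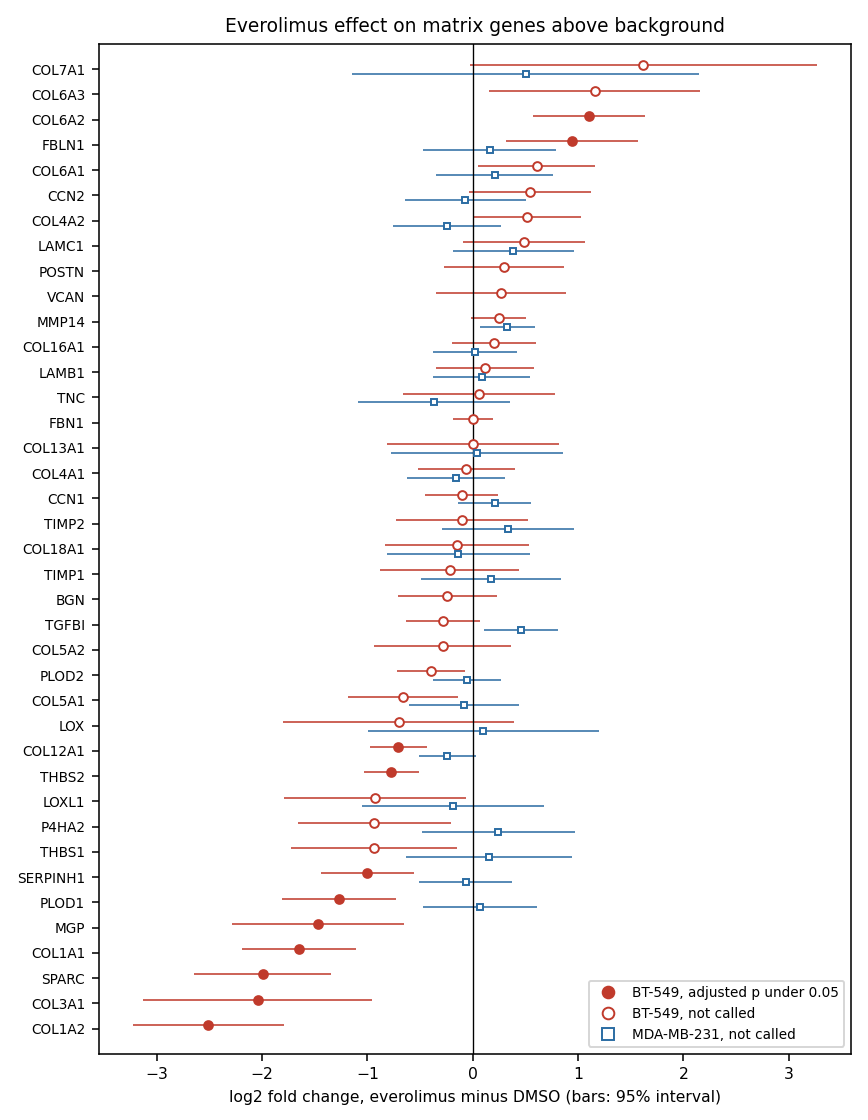
Log2 fold change of everolimus over DMSO with its 95% interval for the 39 matrix genes above background in BT-549 (red circles, filled where called) and for the 26 of them also above background in MDA-MB-231 (blue squares). The fibrillar collagen, SPARC and PLOD1 circles lie to the left, down to -2.51 for COL1A2, while none of the squares passed the test.

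Among the called genes the largest falls, in COL1A2 and COL3A1, were in fibrillar collagens. These rod-like triple helices give tissue its tensile strength, and type I is built from COL1A1 and COL1A2 chains. COL1A1 read 9.70, 10.56 and 11.00 in DMSO and 8.85, 8.74 and 8.72 in everolimus, a 3.14-fold fall (log2 -1.65, SE 0.24, adjusted p 0.00231). COL1A2 read 9.46, 10.34 and 11.02 in DMSO and 7.30, 8.18 and 7.81 in everolimus, a 5.70-fold fall (log2 -2.51, SE 0.33, adjusted p 0.00139). In both type I chains every treated array lay below every control, and control replicate 1 was the lowest control. A second COL1A2 probe changed by -0.99. COL3A1 read 11.70, 11.31 and 10.46 in DMSO and 10.51, 8.17 and 8.67 in everolimus, a 4.11-fold fall (log2 -2.04, SE 0.49, adjusted p 0.0193). Here the groups overlapped, because everolimus replicate 1 (10.51) lay above DMSO replicate 3 (10.46). The COL3A1 call was lost without DMSO replicate 1 (-1.77, adjusted p 0.0694), DMSO replicate 2 (-1.96, adjusted p 0.0717), everolimus replicate 2 (-1.57, adjusted p 0.0627) or everolimus replicate 3 (-1.82, adjusted p 0.0796), and in a fit to the 6 BT-549 arrays alone. The type V chains, which set fibril diameter, did not pass the test: COL5A1 stood at -0.66 (adjusted p 0.0796, 95% interval -1.19 to -0.14) and COL5A2 at -0.29 (adjusted p 0.561, interval -0.94 to 0.36). All 5 fibrillar chains had negative estimates, with a median of -1.65, and 3 of the 5 passed, where 7.23% of all genes were called lower. Without everolimus replicate 1 the COL5A2 estimate was 0.08.

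Of the matrix glycoproteins 2 were called lower (SPARC and MGP) and 1 higher (FBLN1) out of 7 above background, where 7.23% and 9.54% of all genes were. COL12A1 and THBS2 were called lower too. SPARC read 12.20, 11.73 and 10.84 in DMSO and 10.10, 9.33 and 9.35 in everolimus, a 3.99-fold fall (log2 -2.00, SE 0.30, adjusted p 0.00234). COL12A1 read 9.35, 9.25 and 9.20 in DMSO and 8.81, 8.44 and 8.43 in everolimus, a 1.63-fold fall (log2 -0.71, SE 0.12, adjusted p 0.00457). THBS2, the matricellular thrombospondin-2 that affects fibril assembly, read 8.33, 8.25 and 8.29 in DMSO and 7.78, 7.44 and 7.33 in everolimus, a 1.71-fold fall (log2 -0.77, SE 0.12, adjusted p 0.00274). In each of these 3 genes no treated array reached the lowest control. MGP read 13.80, 13.43 and 12.75 in DMSO and 12.86, 11.32 and 11.39 in everolimus (log2 -1.47, SE 0.37, adjusted p 0.0222, 2.77-fold). Its everolimus replicate 1 overlapped the controls, and a second probe changed by -1.15. The MGP call was lost without DMSO replicate 1 (-1.23, adjusted p 0.0793), DMSO replicate 2 (-1.42, adjusted p 0.079), everolimus replicate 2 (-1.20, adjusted p 0.0791) or everolimus replicate 3 (-1.24, adjusted p 0.0931), and in a fit to the 6 BT-549 arrays alone. COL1A1, COL1A2, SPARC, COL12A1 and THBS2 were called in 12 of 12 fits that each left out 1 array.

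The enzymes and chaperones of collagen assembly had negative estimates in 6 of 6 measured genes, with a median of -0.93. The test was passed by 2 of the 6, where 7.23% of all genes were called lower. SERPINH1 read 11.35, 11.23 and 10.63 in DMSO and 10.04, 10.13 and 10.04 in everolimus, a 2.00-fold fall (log2 -1.0, SE 0.20, adjusted p 0.00885). PLOD1 read 13.40, 13.01 and 12.33 in DMSO and 11.94, 11.49 and 11.50 in everolimus, a 2.41-fold fall (log2 -1.27, SE 0.24, adjusted p 0.0077). In both genes the treated arrays lay wholly below the controls, and both were called in 12 of 12 fits that left out 1 array. The lysyl hydroxylase PLOD2 stood at -0.40 (adjusted p 0.0864), but its further probes changed by -0.73 and -0.97, and it was called with the mean of its probes (-0.70, adjusted p 0.0225), with the arrays' medians made equal (-0.47, adjusted p 0.0445) and without DMSO replicate 1 (-0.53, adjusted p 0.0424). The prolyl hydroxylase subunit P4HA2 stood at -0.94 (adjusted p 0.0757), or -0.53 without everolimus replicate 1, and the lysyl oxidases LOX and LOXL1, which crosslink collagen and elastin, at -0.70 (adjusted p 0.373) and -0.93 (adjusted p 0.132). The LOX estimate rested on everolimus replicate 1, which read 8.0 where replicates 2 and 3 read 10.48 and 10.09 and the controls 9.90 to 10.44. Without that array it was 0.06. LOXL1 stood at -1.39 without everolimus replicate 1, where it was called (adjusted p 0.00957), and at -0.57 without DMSO replicate 1.

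**Figure D3:**
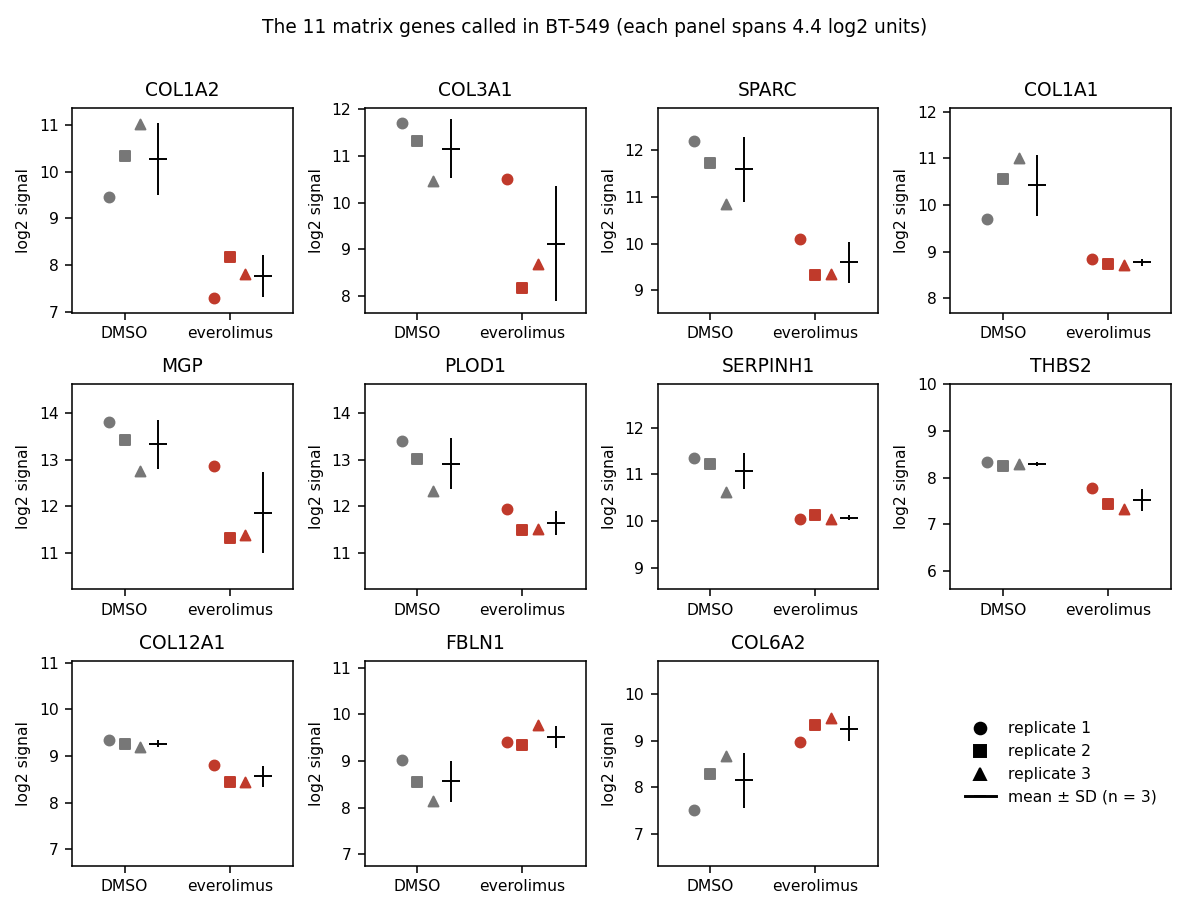
Log2 signal of the 11 called matrix genes on the 6 BT-549 arrays, 1 panel per gene, with replicate numbers as symbols and the mean ± SD (n = 3) beside each group. Each panel spans 4.4 log2 units, so slopes can be set against each other. The 9 lower genes fall from left to right, and in COL3A1 and MGP the circle of everolimus replicate 1 lies above the rest of its group.

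The higher genes were COL6A2 and FBLN1. COL6A2 encodes a chain of type VI collagen, which forms beaded microfilaments near the cell surface. It read 7.51, 8.28 and 8.67 in DMSO and 8.96, 9.33 and 9.48 in everolimus, a 2.15-fold rise (log2 1.10, SE 0.24, adjusted p 0.0127). The treated arrays lay above the controls, but 2 further COL6A2 probes changed by 0.03 and 0.08, and the call was lost without everolimus replicate 3 (0.99, adjusted p 0.0562), with the mean of its probes, and in a fit to the 6 BT-549 arrays alone. FBLN1, the gene of fibulin-1, a glycoprotein of basement membranes and elastic fibres, read 9.01, 8.54 and 8.14 in DMSO and 9.40, 9.34 and 9.78 in everolimus, a 1.92-fold rise (log2 0.94, SE 0.29, adjusted p 0.0457). Its groups did not overlap, yet the call held in only 5 of 12 fits that left out 1 array, and the adjusted p reached 0.161 without everolimus replicate 3 (0.81). It was lost without MDA-MB-231 DMSO replicate 2 or 3, MDA-MB-231 everolimus replicate 3, BT-549 DMSO replicate 2 or 3, or BT-549 everolimus replicate 2 or 3. It was also lost with the arrays' medians made equal, with the background peak subtracted, with no floor on dim probes, and in a fit to the 6 BT-549 arrays alone. Further FBLN1 probes above the floor changed by 1.04 and 0.04. The other type VI chains had estimates of 0.61 for COL6A1 (adjusted p 0.126) and 1.16 for COL6A3 (adjusted p 0.107), which did not pass.

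COL6A3 and COL7A1 shared a pattern over the arrays. COL6A3 read 6.77, 7.36 and 7.53 in DMSO and 6.99, 8.97 and 9.18 in everolimus. COL7A1 read 6.85, 7.59 and 7.97 in DMSO and 6.97, 10.11 and 10.19 in everolimus (log2 1.62, 95% interval -0.03 to 3.27, adjusted p 0.165). In both, everolimus replicates 2 and 3 were high and replicate 1 was near background, as was control replicate 1. VWF had the same split among the treated arrays (6.42, 8.31 and 8.22), and so did the epithelial marker EPCAM (6.43, 7.37 and 7.30) and, less widely, HBA1 and CD14. HBA1 was at background by its line mean. Other markers of these cell types stayed under 6.8 on those arrays. The endothelial marker CDH5 read 6.47 to 6.48 and PECAM1 6.60, 6.70 and 6.61. The epithelial keratins read 6.62, 6.77 and 6.70 (KRT8), 6.51, 6.68 and 6.57 (KRT18), and 6.60, 6.72 and 6.71 (KRT19). The globin gene HBB read 6.67, 6.64 and 6.49. The part of the VWF, EPCAM, HBA1 and CD14 signals in the collagen values was not tested. Without everolimus replicate 1, COL6A3 (1.86, adjusted p 0.000186) and COL7A1 (2.68, adjusted p 0.00192) were called.

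The basement membrane genes gave no call. COL4A1 and COL4A2 encode the main chains of type IV collagen, the sheet-forming collagen of basement membranes. COL4A1 stood at -0.06 (95% interval -0.52 to 0.40), LAMB1 at 0.11 (interval -0.35 to 0.58) and COL18A1, the source of endostatin, at -0.15 (interval -0.83 to 0.53). COL4A2 (0.51, adjusted p 0.157) and LAMC1, the common laminin gamma chain (0.49, adjusted p 0.23), had treated arrays wholly above the controls. Without everolimus replicate 1 the COL4A2 estimate was 0.21, while COL4A1 ran from -0.32 to 0.09 when 1 array was left out. COL4A5, a type IV chain outside the 47 genes, stood at -1.36 (adjusted p 0.0509).

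Other matrix genes in BT-549 did not pass the test. FN1, which encodes fibronectin, read 6.63, 6.51 and 6.61 in DMSO and 7.07, 6.90 and 6.68 in everolimus (0.30, adjusted p 0.113), but it was at background in both lines and no direction is read from it. CCN1 read 11.55, 11.69 and 11.79 in DMSO and 11.80, 11.44 and 11.48 in everolimus (-0.10, 95% interval -0.45 to 0.24, adjusted p 0.714). CCN2 read 13.30, 13.13 and 12.83 in DMSO and 14.37, 13.10 and 13.42 in everolimus (0.54, interval -0.03 to 1.12, adjusted p 0.182). The groups overlapped in both genes. In CCN2, everolimus replicates 1 and 3 lay above all controls, and the estimate was 0.17 without everolimus replicate 1. THBS1, the gene of thrombospondin-1, stood at -0.94 (adjusted p 0.0993). TGFBI (-0.28, adjusted p 0.256), TNC (0.06), POSTN, the gene of periostin (0.30), FBN1, the gene of fibrillin-1 (0.00), BGN, the gene of biglycan (-0.24), and VCAN, the gene of versican (0.27), gave no call either. Nor did MMP14 (0.25), TIMP1 (-0.22) and TIMP2 (-0.10).

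Replicate arrays of BT-549 ordered the matrix genes in opposing ways. Among the 3 controls, 20 of the 39 genes were highest on replicate 3 and lowest on replicate 1, COL1A1, COL1A2 and the COL6 chains among them. Another 14 were highest on replicate 1 and lowest on replicate 3, among them COL3A1, SPARC, MGP, SERPINH1 and PLOD1. Over all tested genes these orders took 35.0% and 26.8%, against 51.3% and 35.9% of the matrix genes. The falls in COL1A1 and in SPARC were therefore seen against controls whose order ran opposite ways.

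**Figure D4:**
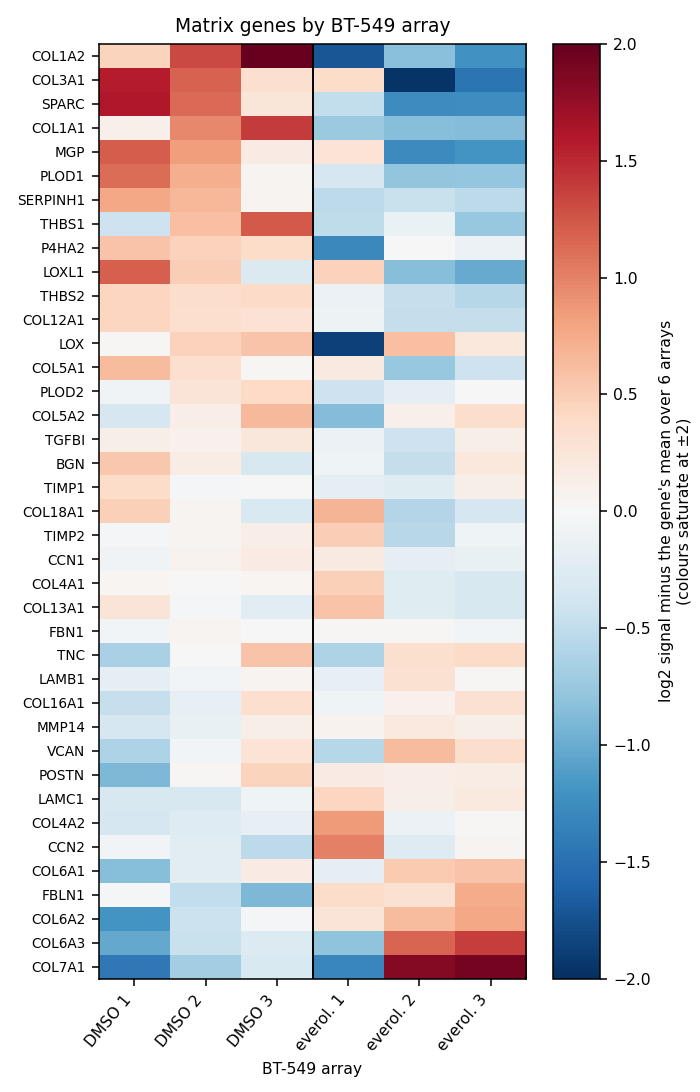
Log2 signal of the 39 matrix genes on each BT-549 array minus the gene's mean over the 6 arrays, sorted by log2 fold change, with blue below and red above the mean and colours saturating at ±2.0. COL1A2 and SPARC are red in DMSO and blue in everolimus. COL3A1 is too, except on everolimus replicate 1, which lies above the gene's mean. Everolimus replicate 1 differs from replicates 2 and 3 in COL3A1, COL6A3, COL7A1 and LOX.

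The proximal promoters are printed for the called genes that have an entry in the RefSeq promoter table (GRCh38.p14), so that the sequence at the start of genes that moved together can be compared. Of the 47 genes, 34 had a window and of the 11 called genes 7 did. Each window runs 5′ to 3′ on the gene's strand from 250 bases before to 50 after the start. Capitals mark matches on either strand to TATAAA (the TATA box), CCAAT (bound by NF-Y), GGGCGG (the GC box), GGAATG (bound by TEAD factors) and GAANNTTC (the core of heat shock elements). For SERPINH1, which has 2 windows, the more upstream one is shown.
SPARC (chr5:151686866-151687165, minus strand): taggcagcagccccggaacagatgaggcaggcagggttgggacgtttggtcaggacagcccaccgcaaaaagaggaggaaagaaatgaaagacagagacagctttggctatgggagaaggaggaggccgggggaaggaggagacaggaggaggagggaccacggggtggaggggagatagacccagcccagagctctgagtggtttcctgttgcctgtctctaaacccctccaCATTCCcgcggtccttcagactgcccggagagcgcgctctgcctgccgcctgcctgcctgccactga
COL12A1 (chr6:75206004-75206303, minus strand): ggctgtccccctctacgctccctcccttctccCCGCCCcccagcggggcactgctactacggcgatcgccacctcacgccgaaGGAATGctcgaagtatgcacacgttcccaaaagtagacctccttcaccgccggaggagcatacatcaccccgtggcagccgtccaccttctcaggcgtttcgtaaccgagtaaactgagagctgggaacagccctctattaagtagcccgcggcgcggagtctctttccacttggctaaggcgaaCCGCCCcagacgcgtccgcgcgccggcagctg
THBS2 (chr6:169253797-169254096, minus strand): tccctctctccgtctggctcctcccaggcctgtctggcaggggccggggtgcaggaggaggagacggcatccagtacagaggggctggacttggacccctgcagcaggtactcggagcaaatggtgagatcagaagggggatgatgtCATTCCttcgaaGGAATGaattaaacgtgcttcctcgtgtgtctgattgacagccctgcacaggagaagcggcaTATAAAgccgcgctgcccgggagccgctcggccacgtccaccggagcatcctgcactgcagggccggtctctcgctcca
SERPINH1 (chr11:75562003-75562302, plus strand): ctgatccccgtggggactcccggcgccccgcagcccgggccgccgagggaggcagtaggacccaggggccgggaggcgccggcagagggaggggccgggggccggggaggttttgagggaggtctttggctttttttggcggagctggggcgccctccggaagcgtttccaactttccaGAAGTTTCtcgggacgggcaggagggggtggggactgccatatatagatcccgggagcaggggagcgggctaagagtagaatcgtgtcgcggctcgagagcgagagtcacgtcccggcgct
PLOD1 (chr1:11934467-11934766, plus strand): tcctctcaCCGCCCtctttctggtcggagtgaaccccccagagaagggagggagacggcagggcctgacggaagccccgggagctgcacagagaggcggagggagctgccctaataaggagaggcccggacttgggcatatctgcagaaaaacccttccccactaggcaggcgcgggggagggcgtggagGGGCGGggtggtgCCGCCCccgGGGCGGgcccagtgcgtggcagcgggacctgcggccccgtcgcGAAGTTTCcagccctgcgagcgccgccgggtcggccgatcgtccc
COL6A2 (chr21:46097862-46098161, plus strand): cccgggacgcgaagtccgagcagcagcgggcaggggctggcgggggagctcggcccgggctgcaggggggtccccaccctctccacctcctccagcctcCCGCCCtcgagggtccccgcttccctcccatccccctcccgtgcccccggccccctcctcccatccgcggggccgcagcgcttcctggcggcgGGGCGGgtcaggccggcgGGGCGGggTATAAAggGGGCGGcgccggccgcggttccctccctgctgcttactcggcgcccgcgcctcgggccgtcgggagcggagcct
FBLN1 (chr22:45502633-45502932, plus strand): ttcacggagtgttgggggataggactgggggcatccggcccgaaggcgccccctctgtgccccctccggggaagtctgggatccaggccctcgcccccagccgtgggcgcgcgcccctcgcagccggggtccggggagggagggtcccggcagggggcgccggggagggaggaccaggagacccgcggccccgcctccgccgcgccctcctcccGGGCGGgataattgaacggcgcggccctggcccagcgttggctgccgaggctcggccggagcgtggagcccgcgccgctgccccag

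Of the lower genes, SPARC, COL12A1, THBS2, SERPINH1 and PLOD1 had a window, and their printed windows did not share 1 of the motifs searched. COL1A1, COL1A2, COL3A1 and MGP had no window and were not searched. GGAATG lay in the windows of SPARC, 17 bases before the start, of COL12A1, 167 bases before, and of THBS2, 103 and 91 bases before. It was found in 7 of the 34 matrix genes with a window, among them CCN2, and in 14.0% of all 35116 windows. GAANNTTC lay 71 bases before the start in SERPINH1, whose product is itself a heat shock protein, and just after the start in PLOD1. It was found in 3 of the 34 genes and in 6.77% of all windows. TATAAA lay 32 bases before the start in COL6A2 and 29 before in THBS2, and was found in 7 of the 34 genes and 11.5% of windows. GGGCGG was found in 26 of 34 genes and 45.0% of windows, and CCAAT in 12 of 34 genes and 34.6% of windows. For every motif a gene was counted if any of its windows held a match. The percentages are of single windows, so the counts and percentages are not like for like. A match describes these letters and not a bound site. The start sites of COL4A1 and COL4A2 lie head to head, and their windows share 226 bases (chr13:110307108-110307333).

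The everolimus effects of the lines were then set against each other in 1 model. Of the 26 genes above background in both lines, 0 were called by limma in the difference between the effects, against 0.638% of all genes. An unadjusted p under 0.05 was reached by 6 of the 26, and by 1842 of all 11764 genes. Estimates of the difference (BT-549 minus MDA-MB-231) were -1.34 for PLOD1 (adjusted p 0.106), -0.93 for SERPINH1 (adjusted p 0.149) and -0.74 for TGFBI (adjusted p 0.153). In the fit without a block, a fall in BT-549 and none called in MDA-MB-231 is thus not shown to differ for PLOD1 and SERPINH1. TGFBI was called in neither line. With replicate number as a block, PLOD1 (adjusted p 0.0293) and SERPINH1 (adjusted p 0.0386) were called, 7.69% of the 26 where 6.01% of all genes were called. The count was 3 without BT-549 everolimus replicate 1 (COL7A1, COL12A1 and PLOD1), or 11.5% where 10.4% of all genes were called, and 1 without BT-549 DMSO replicate 3 (PLOD1), or 3.85% against 0.74%. The 13 genes at background in MDA-MB-231 only were kept apart. Among them, COL1A2 (-2.55, adjusted p 0.0448) and THBS2 (-0.89, adjusted p 0.0482) passed the test of the difference in the lower direction, as 0.323% of all genes did. The rest of the 13 that were called in BT-549 did not pass it. These were COL1A1 (-1.58, adjusted p 0.0771), SPARC (-1.94, adjusted p 0.0738), COL3A1 (-2.10, adjusted p 0.182), MGP (-1.47, adjusted p 0.202) and COL6A2 (1.04, adjusted p 0.175). In MDA-MB-231, COL1A2 read 6.44, 6.58 and 6.46 in DMSO and 6.57, 6.44 and 6.60 in everolimus. THBS2 read 6.53, 6.49 and 6.35 in DMSO and 6.47, 6.60 and 6.64 in everolimus there. A gene at background has no room to fall, so the COL1A2 and THBS2 differences compare a fall with no measurable signal. The COL1A2 call was lost in 9 of 12 fits that left out 1 array (adjusted p up to 0.145) and the THBS2 call in 11 of 12 (up to 0.148). Both calls were also lost with the background peak subtracted and with the trended prior. The COL1A2 call was lost with no floor and with the mean of its probes too, and the THBS2 call with the stricter floor.

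A wider list of 115 matrix genes outside the 47, of which 109 had a probe and 75 were tested, was read the same way. In MDA-MB-231, 59 of them were above background and 0 were called by limma, against 0.153% of all genes. An unadjusted p under 0.05 was reached by 4 of the 59, and by 1246 of all 11764 genes. In BT-549, 67 were above background, and 6 were higher and 8 lower (20.9%, against 16.8% of all genes). The genes of collagen biosynthesis and export held 5 of the 8 lower calls, with 1 higher call, out of 19 above background. Over all genes 7.23% were called lower and 9.54% higher. P4HA1, the catalytic subunit of collagen prolyl 4-hydroxylase, read 10.30, 9.99 and 9.38 in DMSO and 8.28, 8.41 and 8.54 in everolimus, a 2.79-fold fall (log2 -1.48, SE 0.21, adjusted p 0.00186). PPIB, the prolyl isomerase cyclophilin B, read 11.33, 10.93 and 10.64 in DMSO and 9.85, 9.70 and 9.28 in everolimus (-1.36, SE 0.21, adjusted p 0.00254). For both, all treated arrays lay below all controls. PCOLCE2, an enhancer of procollagen cleavage, changed by -0.52 (adjusted p 0.0126), while BMP1, the protease that removes the procollagen C-propeptide, rose by 0.79 (adjusted p 0.00719). The further lower genes of that list, named after their values were seen, were CRTAP, a partner of prolyl 3-hydroxylase (-1.58, adjusted p 0.0343), and SEC24D, a coat subunit of export vesicles (-0.57, adjusted p 0.0374). Of the fibre genes, FBLN2, for fibulin-2, changed by -0.92 (adjusted p 0.0111), MATN2, for matrilin-2, by -1.14 (adjusted p 0.0174) and MFAP2, a microfibril component, by -1.21 (adjusted p 0.0188). LAMB2, the laminin beta-2 chain, rose by 1.20 (adjusted p 0.0205). The further higher genes, also named after their values were seen, were AGRN, for the proteoglycan agrin (1.05, adjusted p 0.0247), LTBP4, a latent TGF-beta binding protein (0.74, adjusted p 0.0374), the hyaluronan receptor CD44 (0.64, adjusted p 0.047) and the integrin chain ITGA6 (0.65, adjusted p 0.0494). P4HA1 was above background in both lines and was called in the difference between the effects (-1.57, SE 0.29, adjusted p 0.0448). The MDA-MB-231 arrays read 8.36, 8.66 and 8.41 in DMSO and 8.32, 8.71 and 8.66 in everolimus for this gene, with no shift beyond the spread. That call was lost with the background peak subtracted, with the trended prior, and with no floor or a stricter floor on dim probes. It was also lost in 10 of 12 fits that left out 1 array, with an adjusted p of up to 0.153. In BT-549, P4HA1, PPIB, BMP1 and FBLN2 were called in 12 of 12 such fits, though FBLN2 was not in a fit to the 6 BT-549 arrays alone. PCOLCE2 lost its call without everolimus replicate 3 (adjusted p 0.0566). The calls of CRTAP, MATN2 and MFAP2 were lost without DMSO replicate 1 or 2 or everolimus replicate 2 or 3 (adjusted p up to 0.127, 0.0703 and 0.0762). LAMB2 lost its call without DMSO replicate 2 or 3 or everolimus replicate 3 (up to 0.0798), and SEC24D in 7 of the 12 fits (up to 0.143). AGRN was called in 7, LTBP4 in 6, CD44 in 5 and ITGA6 in 3 of the 12 fits, and with the mean of its probes CD44 stood at -0.13.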

How the data were processed

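The study hybridised total RNA to 12 Illumina bead arrays, after extraction with a mirVana kit and amplification with a TotalPrep kit, per the labels' protocols. The deposited values are log2 signals of 47230 probes. All columns have the same quantiles, so the authors' values were normalized between arrays, with background left in, which compresses the fold changes of dim genes. Neither the software nor any background correction is named in the sources used here. A second table has 12 columns whose names match no label, and these were not used.

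Probes with 1 gene symbol in the platform annotation (30113) were used. A probe was kept if it exceeded 6.77, the background peak plus 3 SDs, on at least 3 of 12 arrays, and the brightest kept probe stood for its gene (11764 genes). Group means were fitted to all 12 arrays with limma 3.58.1 (R 4.3.3, statmod 1.5.0), without a replicate block, and p-values were 2-sided, adjusted by the Benjamini-Hochberg method over all genes, with calls at an adjusted p under 0.05. The scripts were tested on simulated data. Figures were drawn with matplotlib 3.10.9 (Python 3.11.15).

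The 47 genes and all lists were chosen with earlier results of these data known. Each of the 47 genes called in a line or in the difference is given on every array, as are COL1A1, COL1A2, FN1, SERPINH1, CCN1 and CCN2. The exceptions are COL3A1, SPARC, MGP and COL6A2, which were at background in MDA-MB-231 and are given on the BT-549 arrays. The others are given by range, with those whose groups do not overlap named. For the baseline the 5 largest differences each way are given, and for the wider matrix list up to 8 called genes with the smallest p per line. The labels do not say that equal replicate numbers pair the arrays, and the main fit did not pair them. As a check of pairing, deviations from the group means of arrays with the same replicate number correlated at 0.735, 0.544 and 0.418 in MDA-MB-231. Unlike numbers correlated there too (0.546 for DMSO 2 with everolimus 3 and 0.36 for DMSO 3 with everolimus 2), so the data set replicate 1 apart and do not match 2 and 3 singly. In BT-549 the same-number values were 0.500, 0.0787 and 0.411, not all above 0.1. The alternatives tried were a replicate block, equal medians, subtraction of the background peak, a trended prior, no floor and a stricter floor, a fit to each line's own arrays, the mean of probes, leaving out each array, and leaving out the 4 replicate 1 arrays. Promoters are from RefSeq (GRCh38.p14).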

Additional observations from a re-analysis of the deposited data

Results flagged for a closer look

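P4HA1, above background in both lines, differed in its everolimus effects by -1.57 in the model's test of the difference (limma, BT-549 minus MDA-MB-231, log2 scale), a call lost in 10 of 12 fits that left out 1 array. COL1A2 (-2.55) and THBS2 (-0.89) passed that test too, but were at background in MDA-MB-231, where no fall could be measured, so their values restate the fall in BT-549. Their calls were lost in 9 and 11 of the 12 fits. The calls of P4HA1, COL1A2 and THBS2 were each also lost with the background peak subtracted and with the trended prior.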

How the results depend on the processing

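The number of matrix genes called in MDA-MB-231 stayed at 0 except without the 4 replicate 1 arrays, where it was 1 (COL4A2, lower). In BT-549 the count of 11 became 7 in a fit to that line's own 6 arrays, 23 without the 4 replicate 1 arrays (59%, against 38.2% of all genes), and 7 to 17 when 1 array was left out. With the replicate block it was 19 in BT-549 (48.7%, against 27.9% of all genes), where same-numbered arrays did not all correlate above 0.1, and 0 in MDA-MB-231. In the difference the count of 0 became 2 with the replicate block (SERPINH1 and PLOD1, 7.69% against 6.01%), 9 without the 4 replicate 1 arrays (34.6% against 19.9%), and 0 to 3 when 1 array was left out. In the baseline the count of 27 ran from 25 to 31 when 1 array was left out (59.5% to 73.8%, where 21.6% to 37.4% of all genes were called). Over all genes, the 18 calls in MDA-MB-231 ran from 0 to 125 with 1 array left out, and were 79 with the replicate block, 3 with the background peak subtracted, 6 with the trended prior, 30 with no floor, 11 with the stricter floor, 0 from the line's own arrays and 806 without the 4 replicate 1 arrays. The 1972 calls in BT-549 ran from 795 to 3289 with 1 array left out, and were 3282 with the replicate block, 1165 from the line's own arrays and 4498 without the 4 replicate 1 arrays. The 75 calls in the difference ran from 0 to 1219 with 1 array left out, and were 707 with the replicate block, 15 with the background peak subtracted, 16 with the trended prior, 26 with the stricter floor and 2345 without the 4 replicate 1 arrays. With equal medians, the BT-549 split of 1122 higher and 850 lower genes became 877 and 1088. With 1 array left out, 0 of the 11 called genes and 10 of the 28 uncalled ones in BT-549 changed sign, COL13A1 at 0.00 included, as did 13 of 28 in MDA-MB-231. Among the genes called in a comparison and the 6 fixed ones, the turns were of uncalled changes in MDA-MB-231. With 1 array left out, FBLN1 ran from -0.032 (without everolimus replicate 2) to 0.46 and was also negative without DMSO replicate 1 (-0.023). CCN2 reached 0.0017 without everolimus replicate 3. SERPINH1 ran from -0.19 to 0.092 (without everolimus replicate 1) and was also positive without DMSO replicate 2 (0.027). PLOD1 ran from -0.027 (without DMSO replicate 1 or everolimus replicate 1) to 0.20, and was -0.12 without the 4 replicate 1 arrays. In BT-549, CD44 turned to -0.13 with the mean of its probes. The cause was not tested. Background left in the signals and 3 arrays per group limit what could be detected.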
